A study of Homo sapiens with 10 samples.

Results

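Glycolysis and hypoxia-response genes were followed in PC-3 cells, a hormone-insensitive human prostate cancer line, on 10 single-color Agilent whole-genome arrays. The genes are a fixed list of 38 names, of the 27759 gene names on the array, and each is represented by its probe with the highest mean signal. The list holds glucose transporters, the enzymes of glycolysis, genes for lactate formation and export, regulators of pyruvate and fructose use, oxygen sensors and genes known to respond to low oxygen. Of the 38, 37 were found by their name and BHLHE40 by its older name BHLHB2, and PKM2 is the array's name for the gene now called PKM. For 35 of them the probe exceeded background clearly on the 2 arrays of some group, and these were tested among 19483 genes. The other 3, SLC2A3, EGLN3 and CA9, were not well above background on any of the 10 arrays.

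There were 2 arrays for each of 5 groups: untreated cells at 0 h, and cells kept for 24 h with DMSO, the solvent of the drugs, with 60 µM luteolin, with 60 µM gefitinib, or with 60 µM of each. Gefitinib is an inhibitor of the EGF receptor kinase and luteolin is a plant flavonoid that also inhibits kinases. The labels call the arrays of a group biological replicates and do not say whether they came from separate cultures, so p-values measure the spread between these arrays. The labels and the methods give different culture temperatures. For the 6 drug-treated arrays the deposited file name and the sample label disagree: the files of both arrays labelled luteolin are named for gefitinib, those labelled gefitinib for the combination, and those labelled with both drugs for luteolin. Groups here follow the labels and are called luteolin-labelled, gefitinib-labelled and combination-labelled. The values of each pair of arrays do not depend on this, but the name of the treatment does, and which naming is right was not tested.

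The 75th percentile of the signal, to which each array was scaled, lay between 539.8 and 1402, 63.4% to 70.4% of the probes were well above background, and 0 probes were saturated. All 7 markers listed for PC-3 cells (KRT8, KRT18, EPCAM, VIM, CD44, CAV1 and PLAU) were well above background on all 10 arrays. Of the genes listed as low or lost in this line, CTNNA1 was at background on all arrays by both of its probes. For KLK3, 1 of 3 probes was well above background on all arrays and the other two on none, the brightest probe of KLK2 was on 9 arrays, and TMPRSS2 was on all 10. Among 8 markers of other cell types, PECAM1, CD68 and CD3E were well above background on all 10 arrays. COL1A1 was on 9, ALB on 5, COL1A2 on 2, and PTPRC and HBB on 0. The summed level of all 8, in multiples of the array's 75th percentile, was 0.958 to 1.05 with DMSO. It was 1.24 to 1.57 in the drug-labelled groups, against 158.6 to 308.0 for the PC-3 markers over all arrays.

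Glycolysis splits glucose into pyruvate, which is turned into lactate and exported or enters the mitochondria through pyruvate dehydrogenase, an enzyme that the PDK kinases switch off. In low oxygen the HIF transcription factors are no longer marked for destruction by the prolyl hydroxylases of the EGLN family. They then bind a short DNA core, ACGTG or GCGTG, near many genes of glucose use, blood vessel growth and mitochondrial turnover. Many tumor cells keep part of this program on in normal oxygen.

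The promoters of 5 of the genes show how often that core lies next to them. They were chosen because BNIP3, LDHA, ANKRD37, BHLHE40 and SLC16A3 carry results below and range from 6 copies of the core to 0. Each sequence is the 250 bases before the start of the gene, from RefSeq on GRCh38.p14, read 5′ to 3′ on the strand of the gene, with every ACGTG or GCGTG on either strand in capitals (CACGT and CACGC are the same cores read on the other strand).
BNIP3, chr10:131981924-131982173, minus strand: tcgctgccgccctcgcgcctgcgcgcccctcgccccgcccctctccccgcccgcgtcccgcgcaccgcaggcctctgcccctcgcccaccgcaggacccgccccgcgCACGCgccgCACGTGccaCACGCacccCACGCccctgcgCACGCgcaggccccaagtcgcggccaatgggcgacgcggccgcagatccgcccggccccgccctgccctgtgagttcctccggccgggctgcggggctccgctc
LDHA, chr11:18394313-18394562, plus strand: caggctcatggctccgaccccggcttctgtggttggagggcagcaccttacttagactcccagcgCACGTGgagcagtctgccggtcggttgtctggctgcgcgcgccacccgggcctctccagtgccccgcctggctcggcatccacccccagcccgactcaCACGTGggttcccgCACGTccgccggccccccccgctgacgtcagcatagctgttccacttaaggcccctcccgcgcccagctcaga
ANKRD37, chr4:185396591-185396840, plus strand: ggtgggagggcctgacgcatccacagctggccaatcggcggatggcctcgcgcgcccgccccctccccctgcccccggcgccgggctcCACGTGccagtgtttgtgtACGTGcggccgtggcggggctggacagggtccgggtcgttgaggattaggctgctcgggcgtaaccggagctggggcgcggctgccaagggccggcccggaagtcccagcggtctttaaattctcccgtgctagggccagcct
BHLHE40, chr3:4979187-4979436, plus strand: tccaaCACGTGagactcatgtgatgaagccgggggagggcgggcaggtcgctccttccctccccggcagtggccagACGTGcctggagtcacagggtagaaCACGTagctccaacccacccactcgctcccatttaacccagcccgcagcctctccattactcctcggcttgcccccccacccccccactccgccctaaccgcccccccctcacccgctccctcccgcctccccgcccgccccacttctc
SLC16A3, chr17:82228185-82228434, plus strand: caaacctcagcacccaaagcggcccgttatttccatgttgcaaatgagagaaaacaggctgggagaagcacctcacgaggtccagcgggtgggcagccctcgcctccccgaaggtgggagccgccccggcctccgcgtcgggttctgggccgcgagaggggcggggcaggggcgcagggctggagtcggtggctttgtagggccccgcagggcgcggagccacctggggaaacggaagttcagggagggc
In the window from 250 bases before to 50 bases after the start, ACGTG or GCGTG lay on either strand in 24 of the 34 members that have an entry in the RefSeq table (70.6%), and in 48.4% of all 27303 promoters of that length. VEGFA, NDRG1, SLC2A3 and BNIP3L have no entry there. ACGTG was in 44.1% of the members and 21.6% of all promoters, GCGTG in 44.1% and 36.3%, and CACGTG, the E-box that BHLHE40 binds and that holds ACGTG on both strands, was in 17.6% and 7.4%. The promoters printed above hold 6 cores for BNIP3, 5 for LDHA, 4 for BHLHE40, 3 for ANKRD37 and 0 for SLC16A3, where a CACGTG counts on each strand. These are matches of letters only, and binding was not measured.

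Against DMSO, the luteolin-labelled, gefitinib-labelled and combination-labelled arrays differed in which of these genes moved and which way. In the luteolin-labelled arrays 14 of the 15 glycolytic enzymes lay below DMSO, with the falls of PGAM1 and ENO1 called, while PDK4, NDRG1, ANKRD37 and VEGFA rose. In the gefitinib-labelled arrays 14 of 15 enzymes lay above DMSO, BHLHE40 and ADM had the largest rises of any member in any group, and SLC16A3 fell. In the combination-labelled arrays 31 of 35 members lay above DMSO and 10 were called higher, SLC2A1, PFKFB3, PFKFB4, BNIP3 and ADM among them. The rule for a call was a Benjamini-Hochberg adjusted p below 0.05 from limma together with a 2-fold change or more, and RNA from fewer cells of a kind cannot be told apart from less RNA per cell in such samples.

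**Figure D1:**
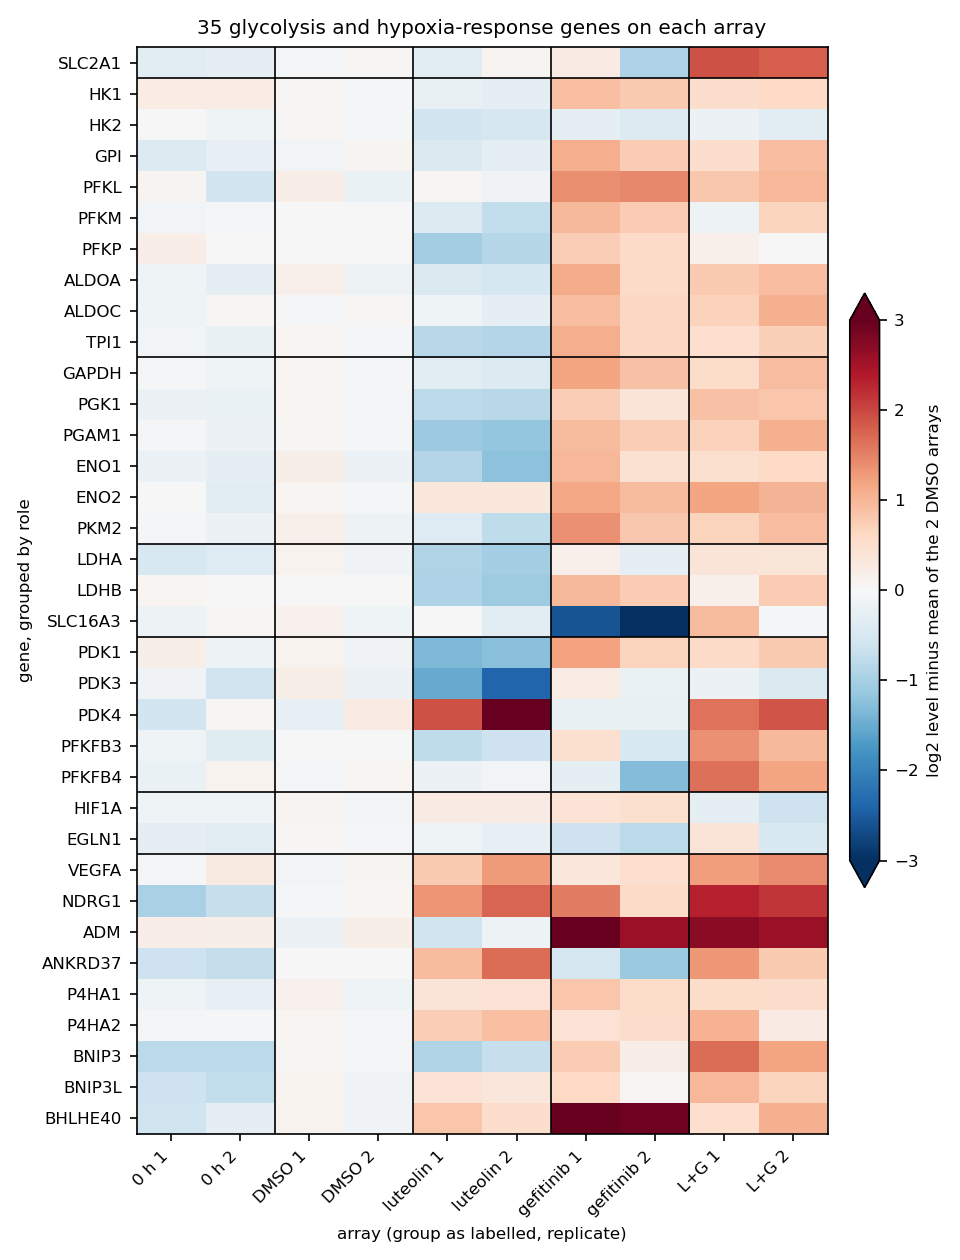
Log2 level of the 35 tested genes (rows, grouped by role) on each of the 10 arrays (columns, groups as labelled), minus the mean of the 2 DMSO arrays; red is above DMSO and blue below, with colors ending at 3 in either direction. The rows of the glycolytic enzymes are mostly blue in the luteolin-labelled columns and red in the gefitinib-labelled and combination-labelled columns, and SLC16A3 is dark blue in the 2 gefitinib-labelled columns.

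In counts, the luteolin-labelled arrays had 4 members called higher and 4 called lower, where 7.23% and 6.14% of all genes tested were called. The gefitinib-labelled arrays had 7 higher and 1 lower, beside 15.7% and 14.3% of all genes. The combination-labelled arrays had 10 higher and 0 lower, beside 12.0% and 7.72%. The median log2 change of the 35 members was -0.36, 0.69 and 0.79 in the luteolin-labelled, gefitinib-labelled and combination-labelled arrays, and that of all genes 0.09, 0.22 and 0.16. By the adjusted p alone, 5 members were higher and 11 lower in the luteolin-labelled arrays, 20 and 3 in the gefitinib-labelled, and 24 and 0 in the combination-labelled. The shares of all genes by that rule were 14.3% higher and 11.7% lower, 33.0% and 22.2%, and 25.0% and 16.3%. These 3 comparisons share the DMSO arrays.

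Against 0 h, 0 of 35 members were called in the DMSO arrays, where limma called 0.0257% of all genes higher and 0.0103% lower, and 1202 of the 19483 genes had an unadjusted p under 0.05, 4 of the 35 members among them. The methods' t-test also called 0 members. The median log2 change was -0.02 over all genes and 0.05 over 12 genes often used as references, 8 of them positive. Over the members it was 0.15, with 29 of 35 positive. The largest were NDRG1 at 0.84 ± 0.31 (SE, adjusted p = 0.708) and BNIP3 at 0.82 ± 0.24 (adjusted p = 0.573), neither called. Against 0 h in place of DMSO, the luteolin-labelled arrays had 5 members higher and 5 lower, beside 8.27% and 7.81% of all genes. The gefitinib-labelled arrays had 12 and 1, beside 14.5% and 14.6%. The combination-labelled arrays had 16 and 0, beside 11.5% and 8.36%. The luteolin-labelled total against 0 h was smaller without the first 0 h array.

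SLC2A1 encodes GLUT1, the main glucose transporter of many tumor cells. Its log2 level, scaled to the array's 75th percentile as are all levels below, was 0.49 and 0.56 at 0 h, 0.80 and 0.87 with DMSO, 0.52 and 0.92 in the luteolin-labelled arrays, 1.08 and -0.09 in the gefitinib-labelled, and 2.75 and 2.62 in the combination-labelled. The combination-labelled arrays lay above the other 8, which ran from -0.09 to 1.08. The change against DMSO was 1.85 ± 0.33 on the log2 scale (3.60-fold, adjusted p = 0.00493) in the combination-labelled arrays. It was -0.12 ± 0.33 (adjusted p = 0.832) in the luteolin-labelled and -0.34 ± 0.33 (adjusted p = 0.414) in the gefitinib-labelled arrays. The neuronal-type transporter SLC2A3 was at background on every array by both of its probes.

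The upper steps of glycolysis, from glucose to the triose phosphates, are carried by hexokinases, glucose phosphate isomerase, phosphofructokinases, aldolases and triose phosphate isomerase. All 9 members of this step lay below DMSO in the luteolin-labelled arrays, from -0.95 for PFKP to -0.01 for PFKL, and none of the 9 was called. The platelet-type phosphofructokinase PFKP had log2 levels of 3.14 and 3.14 with DMSO, 2.10 and 2.27 in the luteolin-labelled arrays, 3.87 and 3.72 in the gefitinib-labelled and 3.28 and 3.16 in the combination-labelled. Its level was lowest in the luteolin-labelled arrays, without overlap, and its change there (-0.95 ± 0.16, adjusted p = 0.0042) was just under 2-fold. The liver-type enzyme PFKL was the member of this step called against DMSO. Its levels were 0.63 and 0.24 with DMSO and 1.84 and 1.87 in the gefitinib-labelled arrays, a change of 1.42 ± 0.24 (2.67-fold, adjusted p = 0.00232), and its second probe, at 0.88, was not called. With the gefitinib label 8 of the 9 were positive, with HK2 at -0.35 ± 0.15 (adjusted p = 0.0752), and in the combination-labelled arrays again 8 of 9, with HK2 at -0.26 ± 0.15 (adjusted p = 0.191).

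HK2, the inducible hexokinase of many tumors, thus lay below DMSO in each drug-labelled group, and its second probe gave -0.46, -0.12 and 0.01 in the luteolin-labelled, gefitinib-labelled and combination-labelled arrays. HK1, the constitutive hexokinase, had levels of 2.76 and 2.67 with DMSO and 3.62 and 3.50 in the gefitinib-labelled arrays (0.85 ± 0.14, adjusted p = 0.00235). TPI1, triose phosphate isomerase, went from 4.94 and 4.81 with DMSO to 4.04 and 4.01 in the luteolin-labelled arrays (-0.85 ± 0.19, adjusted p = 0.0142) and to 5.97 and 5.50 in the gefitinib-labelled (0.86 ± 0.19, adjusted p = 0.00664). Both changes passed the adjusted p and fell short of 2-fold. ALDOA, the main aldolase of most tissues, has a pair of bright probes that disagreed in direction in the luteolin-labelled arrays, at -0.48 for the brightest and 0.50 for the other, and the other was called higher in the gefitinib-labelled arrays (1.43, adjusted p = 0.00171).

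The lower steps, from the triose phosphates to pyruvate, held 6 members, and 5 of them were negative in the luteolin-labelled arrays while all 6 were positive in both other drug-labelled groups. PGAM1, phosphoglycerate mutase, had log2 levels of 4.41 and 4.36 with DMSO, 3.28 and 3.22 in the luteolin-labelled arrays, 5.34 and 5.11 in the gefitinib-labelled and 5.08 and 5.44 in the combination-labelled. The luteolin-labelled arrays were the lowest of all, and PGAM1 was called lower there at -1.13 ± 0.17 (2.19-fold, adjusted p = 0.00315). ENO1, the widespread enolase, had 5.92 and 5.59 with DMSO and 4.88 and 4.53 in the luteolin-labelled arrays (-1.05 ± 0.23, 2.07-fold lower, adjusted p = 0.0122), and its second probe was also called lower, at -1.08. ENO1 lost the call without the first DMSO array (-0.88) or without the second luteolin-labelled array (-0.87). PGK1, phosphoglycerate kinase, was at -0.81 ± 0.17 there (adjusted p = 0.0101). ENO2, the neuron-specific enolase, was the exception at 0.33 ± 0.17 (adjusted p = 0.203).

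GAPDH, PKM2 and ENO2 were called higher in the gefitinib-labelled arrays. GAPDH, which makes NADH in glycolysis and is a common reference gene, had levels of 5.97 and 5.85 with DMSO and 7.08 and 6.79 in the gefitinib-labelled arrays (1.03 ± 0.18, 2.04-fold, adjusted p = 0.00284). PKM2, pyruvate kinase, had 4.94 and 4.65 with DMSO and 6.17 and 5.59 in the gefitinib-labelled arrays (1.09 ± 0.24, 2.13-fold, adjusted p = 0.00639). ENO2 went from 0.55 and 0.43 to 1.66 and 1.44 in the gefitinib-labelled arrays (1.06 ± 0.17, adjusted p = 0.00205) and to 1.67 and 1.52 in the combination-labelled (1.10 ± 0.17, adjusted p = 0.00285). These changes sat just above 2-fold, and in the gefitinib-labelled arrays all 3 calls were lost without the second DMSO array (0.97, 0.94 and 0.99 for GAPDH, PKM2 and ENO2) or without the first gefitinib-labelled array (0.89, 0.80 and 0.95). All 3 were also lost with the 75th percentile over probes well above background on all arrays (0.87, 0.93 and 0.89), and GAPDH (0.97) and ENO2 (0.9994) with normexp background correction. The ENO2 call in the combination-labelled arrays was lost with normexp background correction (0.99) and with array median scaling (0.98).

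The shift of the enzymes has to be read beside genes often used as references. The 12 reference genes, such as ACTB, B2M and EEF1A1, had a median log2 change of -0.10 in the luteolin-labelled arrays, 0.73 in the gefitinib-labelled and 0.44 in the combination-labelled, where the 15 glycolytic enzymes had -0.54, 0.85 and 0.74. Of these 12, 5 were positive and 7 negative in the luteolin-labelled arrays, 10 and 2 in the gefitinib-labelled and 9 and 3 in the combination-labelled. HPRT1, 1 of the 12, was called lower in the luteolin-labelled arrays, at -1.90. The summed level of the reference genes was 914.6 to 959.7 times the array's 75th percentile with DMSO, 1482 to 1744 in the gefitinib-labelled arrays and 1237 to 1714 in the combination-labelled. With quantile normalization in place of the 75th percentile, the medians of the enzymes became -0.55, 0.19 and 0.30 and those of the reference genes -0.21, -0.19 and -0.19. The median of the enzymes kept its direction in each group under all 5 settings tried (the 75th percentile over all probes or over those well above background throughout, the array median, normexp background correction and quantile normalization), with 14 of 15 negative in the luteolin-labelled arrays each time. The median of the reference genes turned in the gefitinib-labelled and combination-labelled arrays under quantile normalization. Under quantile normalization the calls of GAPDH, ENO2, PKM2 and NDRG1 in the gefitinib-labelled arrays were lost, and PFKL, ADM, BHLHE40 and SLC16A3 were called. The part of the array-wide shift in the rise of the enzymes was not tested.

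**Figure D2:**
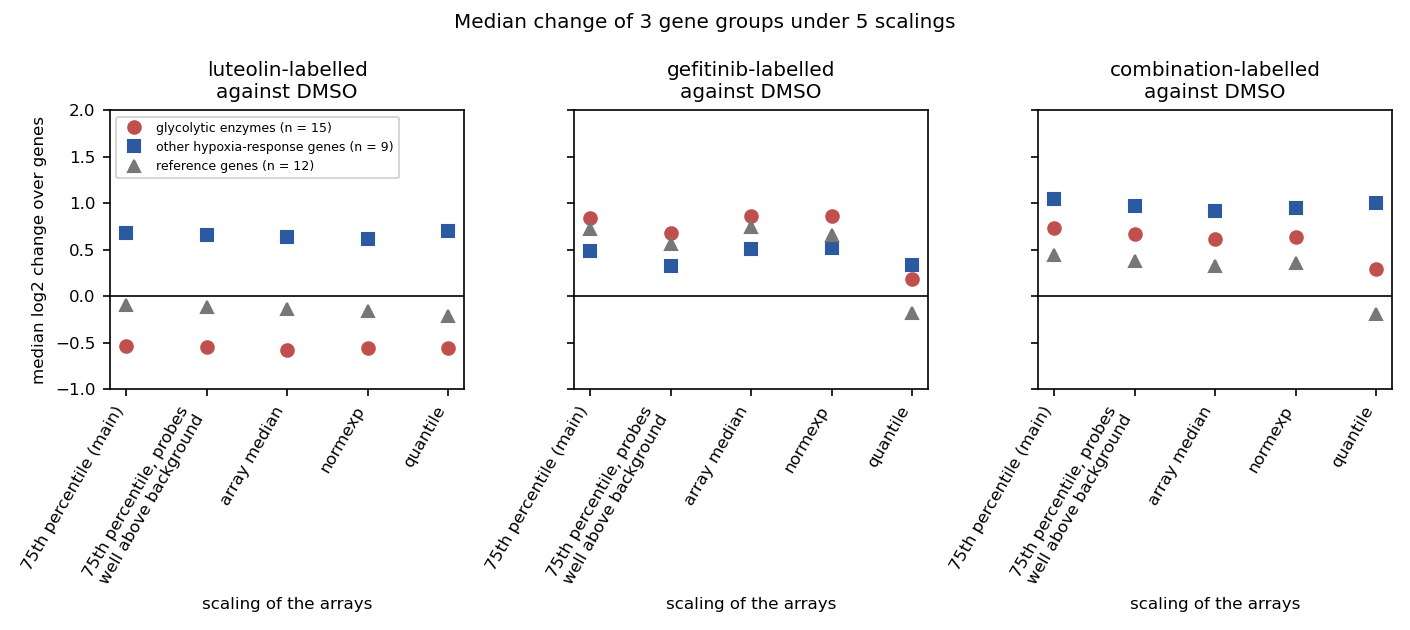
Median log2 change against DMSO of the 15 glycolytic enzymes (circles), the 9 other tested hypoxia-response genes (squares) and 12 reference genes (triangles) under 5 settings of background and scaling, for each drug-labelled group. The enzymes stay below 0 in the luteolin-labelled arrays under every setting, while in the gefitinib-labelled arrays they drop from 0.85 to 0.19 with quantile normalization.

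Lactate is made by lactate dehydrogenase and leaves the cell through SLC16A3, the transporter MCT4. The A subunit LDHA, which favors lactate formation, had log2 levels of 6.05 and 5.82 with DMSO, 5.03 and 4.91 in the luteolin-labelled arrays, 6.08 and 5.68 in the gefitinib-labelled and 6.33 and 6.31 in the combination-labelled. Its change in the luteolin-labelled arrays was -0.96 ± 0.18 (adjusted p = 0.00701), just under 2-fold, and its 3 probes there gave -0.96, -0.32 and -1.18, the last of them called. LDHB was at -0.99 ± 0.21 in the luteolin-labelled arrays (adjusted p = 0.0113) and 0.87 ± 0.21 in the gefitinib-labelled (adjusted p = 0.00939). LDHA was at -0.06 ± 0.18 in the gefitinib-labelled arrays (adjusted p = 0.803).

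SLC16A3 was the member with the largest fall. Its levels were 4.88 and 5.06 at 0 h, 5.16 and 4.89 with DMSO, 5.04 and 4.71 in the luteolin-labelled arrays, 2.43 and 2.0 in the gefitinib-labelled and 5.98 and 4.96 in the combination-labelled. The gefitinib-labelled pair stood far below the other 8 arrays, which overlapped. The fall was -2.80 ± 0.32 (6.99-fold, adjusted p = 0.00048) in the gefitinib-labelled arrays, with -0.15 ± 0.32 (adjusted p = 0.777) in the luteolin-labelled and 0.45 ± 0.32 (adjusted p = 0.291) in the combination-labelled. It was called under each of the 5 settings. Its difference between the combination-labelled and gefitinib-labelled arrays was 3.25 ± 0.32 (9.52-fold, adjusted p = 0.000179).

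The PDK kinases switch off pyruvate dehydrogenase and so keep pyruvate out of the mitochondria. PDK4, the form induced by fasting and FOXO factors, had levels of -3.06 and -2.58 with DMSO, -0.91 and 0.16 in the luteolin-labelled arrays, -3.03 and -3.04 in the gefitinib-labelled and -1.18 and -0.93 in the combination-labelled. It was called higher in the luteolin-labelled arrays at 2.45 ± 0.35 (5.46-fold, adjusted p = 0.00243) and in the combination-labelled at 1.77 ± 0.35 (3.41-fold, adjusted p = 0.00721). PDK1, a known HIF target, moved the other way in the luteolin-labelled arrays. It had -0.07 and -0.29 with DMSO, -1.52 and -1.42 in the luteolin-labelled, 1.02 and 0.49 in the gefitinib-labelled and 0.39 and 0.62 in the combination-labelled arrays. The fall was -1.29 ± 0.22 (2.45-fold, adjusted p = 0.00469) and was also called by its second probe (-1.09). PDK3 fell too, from -2.75 and -3.09 with DMSO to -4.44 and -5.29 in the luteolin-labelled arrays (-1.94 ± 0.31, 3.85-fold, adjusted p = 0.00372), where 1 of the 2 arrays was not well above background, and this call was lost with normexp background correction (-0.91). The PDK4 call in the combination-labelled arrays was lost without the first DMSO array (1.53).

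PFKFB3 and PFKFB4 set the level of fructose 2,6-bisphosphate, which activates phosphofructokinase. PFKFB4 had levels of 0.10 and 0.21 with DMSO, -0.01 and 0.07 in the luteolin-labelled arrays, -0.12 and -1.15 in the gefitinib-labelled and 1.81 and 1.35 in the combination-labelled. The combination-labelled arrays were the highest, at 1.42 ± 0.32 above DMSO (2.68-fold, adjusted p = 0.0105). PFKFB3 had -0.09 and -0.12 with DMSO and 1.27 and 0.87 in the combination-labelled arrays (1.17 ± 0.30, 2.26-fold, adjusted p = 0.0161), and all 4 of its probes were called higher there. Without either DMSO array both PFKFB4 (1.37 and 1.48) and PFKFB3 (1.19 and 1.16) missed the adjusted p, and PFKFB3 also lost the call without the first combination-labelled array (0.97). With the gefitinib label its probes disagreed, at 0.01 for the brightest and 1.02, 1.66 and 0.47 for the 3 dimmer ones, and 2 of these dimmer probes were called. The gefitinib-labelled pair was farther apart than that of any other group for SLC2A1 and PFKFB4.

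**Figure D3:**
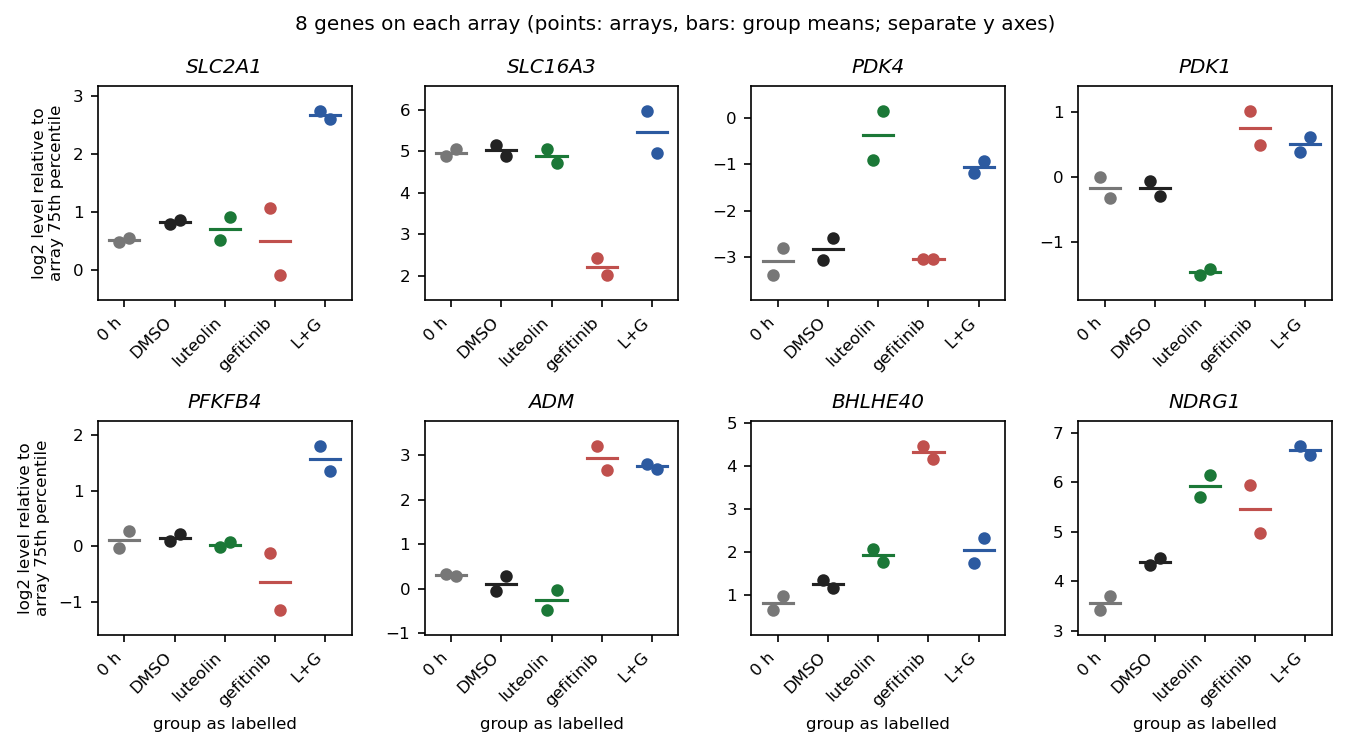
Log2 level, scaled to the 75th percentile, for 8 genes, with each array as a point and the group mean as a bar, on separate vertical axes. SLC2A1 and PFKFB4 are highest in the combination-labelled arrays, SLC16A3 is lowest and BHLHE40 highest in the gefitinib-labelled, and PDK4 is highest and PDK1 lowest in the luteolin-labelled.

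HIF1A encodes the oxygen-regulated subunit of HIF-1, which is controlled mainly at the protein level, and protein was not measured here. Its log2 levels were 2.34 and 2.17 with DMSO, 2.50 and 2.50 in the luteolin-labelled arrays, 2.66 and 2.72 in the gefitinib-labelled and 1.98 and 1.63 in the combination-labelled. The combination-labelled arrays were lowest and the gefitinib-labelled highest, but neither was called against DMSO (-0.45 ± 0.17, adjusted p = 0.0606, and 0.44 ± 0.17, adjusted p = 0.0527). EGLN1, the main prolyl hydroxylase that marks HIF for destruction, was at -0.72 ± 0.25 in the gefitinib-labelled arrays (adjusted p = 0.0388) by its brightest probe and at -0.08 and -0.12 by its dimmer ones. EGLN3, a hydroxylase that HIF itself induces, and CA9, a cell-surface carbonic anhydrase that is a common marker of hypoxia, were at background throughout.

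The other hypoxia-response genes had a median log2 change of 0.68 in the luteolin-labelled arrays, 0.49 in the gefitinib-labelled and 1.04 in the combination-labelled, over 9 tested members. In the luteolin-labelled arrays the median of these 9 was opposite in sign to that of the glycolytic enzymes, and this held under each of the 5 settings. A rise of that size was not seen in the further list of 39 tested hypoxia-response genes described under other observations. Their median in the luteolin-labelled arrays was 0.12, with 6 called higher and 2 lower, beside a median of 0.09 for all genes. NDRG1, a differentiation-related gene induced by hypoxia and other stresses, was higher than DMSO in each drug-labelled group. Its levels were 3.42 and 3.71 at 0 h, 4.33 and 4.46 with DMSO, 5.71 and 6.14 in the luteolin-labelled arrays, 5.94 and 4.97 in the gefitinib-labelled and 6.74 and 6.55 in the combination-labelled. All 6 drug-labelled arrays lay above the DMSO arrays, which lay above those at 0 h. The changes were 1.53 ± 0.31 (2.88-fold, adjusted p = 0.00917), 1.06 ± 0.31 (2.08-fold, adjusted p = 0.0198) and 2.25 ± 0.31 (4.74-fold, adjusted p = 0.00193) in that order, and a second, dimmer probe was called in all 3. The call in the luteolin-labelled arrays was lost without the first DMSO array (1.46) or the second luteolin-labelled array (1.31), and that in the gefitinib-labelled without either DMSO array (0.99 and 1.12) or without the first gefitinib-labelled array (0.57).

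VEGFA, the growth factor of blood vessels, had levels of -1.02 and -0.86 with DMSO, -0.17 and 0.34 in the luteolin-labelled arrays, -0.62 and -0.45 in the gefitinib-labelled and 0.30 and 0.49 in the combination-labelled. It was called higher in the luteolin-labelled arrays (1.03 ± 0.21, 2.04-fold, adjusted p = 0.00986) and in the combination-labelled (1.34 ± 0.21, 2.53-fold, adjusted p = 0.00306), in both by all 4 of its probes. The luteolin-labelled call of the brightest probe was lost under quantile normalization (0.98), array median scaling (0.99) and normexp (0.91), without either DMSO array (0.95 and 1.11) and without the second luteolin-labelled array (0.78). With the gefitinib label its 4 probes ranged from -0.09 to 2.02, and 1 of them was called. ANKRD37, a small ankyrin repeat gene and HIF target, went from -0.94 and -0.98 with DMSO to -0.02 and 0.72 in the luteolin-labelled (1.31 ± 0.30, adjusted p = 0.0151) and 0.34 and -0.18 in the combination-labelled arrays (1.04 ± 0.30, adjusted p = 0.0257). With the gefitinib label it lay lower, at -1.47 and -2.08 (-0.81 ± 0.30, adjusted p = 0.0481), which passed the adjusted p and was under 2-fold. In the combination-labelled arrays the call of ANKRD37 was lost with normexp (0.95), array median scaling (0.92) and the 75th percentile over probes well above background on all arrays (0.97), without either DMSO array (1.06 and 1.02) and without the first combination-labelled array (0.79). In the luteolin-labelled arrays it was lost without either DMSO array (1.33 and 1.29) or the second luteolin-labelled array (0.94).

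ADM and BHLHE40 carried the largest rises. ADM, which encodes the vasodilator peptide adrenomedullin, had levels of -0.06 and 0.28 with DMSO, -0.49 and -0.04 in the luteolin-labelled arrays, 3.22 and 2.67 in the gefitinib-labelled and 2.81 and 2.70 in the combination-labelled. The 4 arrays of the last pair of groups stood apart from the other 6. The rises were 2.83 ± 0.24 (7.13-fold, adjusted p = 0.000137) and 2.65 ± 0.24 (6.26-fold, adjusted p = 0.000644), with -0.37 ± 0.24 (adjusted p = 0.289) in the luteolin-labelled arrays. BHLHE40, a transcriptional repressor of the circadian clock and HIF target, had 1.34 and 1.14 with DMSO, 2.07 and 1.77 in the luteolin-labelled, 4.47 and 4.16 in the gefitinib-labelled and 1.74 and 2.32 in the combination-labelled arrays. The gefitinib-labelled arrays were the highest (3.07 ± 0.24, 8.42-fold, adjusted p = 0.000108), and the combination-labelled ones lay 2.29 ± 0.24 below them on the log2 scale (4.88-fold, adjusted p = 0.000226).

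BNIP3 and BNIP3L encode mitochondrial receptors that send mitochondria to autophagy. BNIP3 had levels of 3.06 and 3.06 at 0 h, 3.91 and 3.84 with DMSO, 2.98 and 3.19 in the luteolin-labelled arrays, 4.64 and 4.07 in the gefitinib-labelled and 5.56 and 5.05 in the combination-labelled. The luteolin-labelled arrays lay at the 0 h level, and the combination-labelled ones above all others. BNIP3 was called higher in the combination-labelled arrays (1.43 ± 0.24, 2.69-fold, adjusted p = 0.0037), and its change in the luteolin-labelled was -0.79 ± 0.24 (adjusted p = 0.0423). BNIP3L was at 0.38, 0.32 and 0.83 in the luteolin-labelled, gefitinib-labelled and combination-labelled arrays, and was not called in any. P4HA1 and P4HA2, the collagen prolyl hydroxylase subunits, were positive in each drug-labelled group, between 0.41 and 0.82, and were not called in any.

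**Figure D4:**
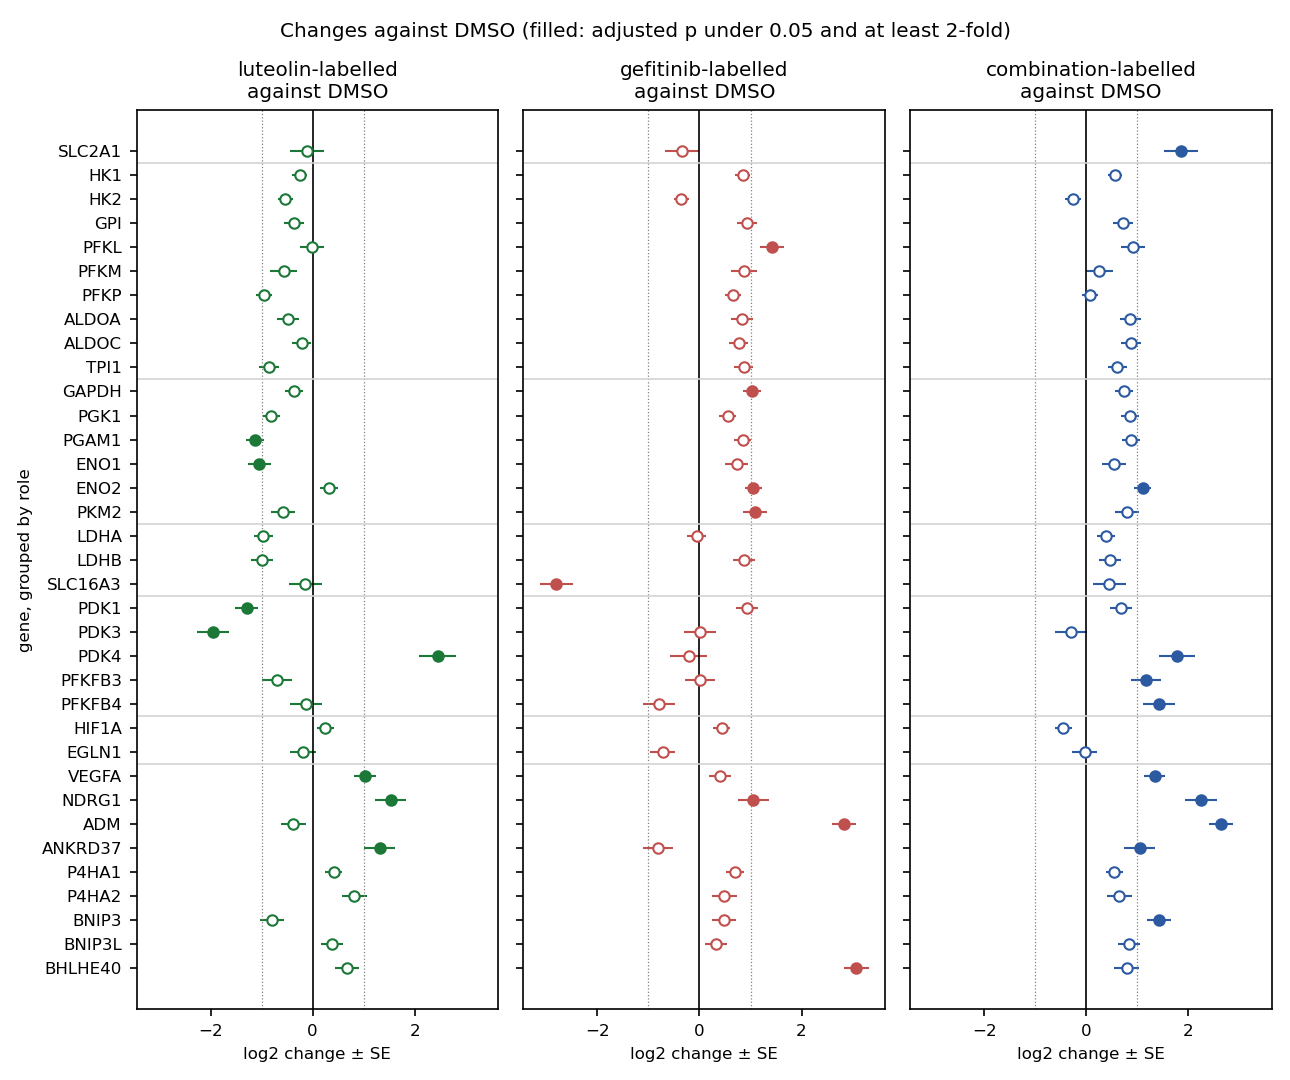
Log2 change against DMSO with its standard error for the 35 tested genes (rows, grouped by role) in the luteolin-labelled, gefitinib-labelled and combination-labelled arrays; filled points passed an adjusted p of 0.05 and a change of 2-fold, and dotted lines mark 2-fold. The filled points count 8, 8 and 10, all to the right of 0 in the combination-labelled panel.

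The drug-labelled groups were also set against each other. The luteolin-labelled arrays had 3 members higher than the gefitinib-labelled (SLC16A3, PDK4 and ANKRD37) and 18 lower, where 18.2% and 18.4% of all genes were called. ADM differed most, at -3.21 ± 0.24 (9.24-fold lower, adjusted p = 6.05e-05), and PDK1 was 4.67-fold and PGAM1 3.93-fold lower. The combination-labelled arrays had 19 members higher and 0 lower than the luteolin-labelled, beside 11.2% and 9.84% of all genes, with ADM at 3.02 ± 0.24, BNIP3 at 2.22 ± 0.24 and PGAM1 at 2.01 ± 0.17. Against the gefitinib-labelled arrays, the combination-labelled had 7 members higher (SLC2A1, SLC16A3, PDK4, PFKFB3, PFKFB4, NDRG1 and ANKRD37) and 1 lower (BHLHE40), beside 17.2% and 9.77%. Under quantile normalization the first and the second of these comparisons called fewer members. The shares of all genes there are not given, so these drops cannot be judged.

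The departure from additivity is how far the combination-labelled change from DMSO, on the log2 scale, lay from the luteolin-labelled and gefitinib-labelled changes added together, and was called at the adjusted p alone. Of the 35 members, 10 were called above the sum and 2 below it, beside 17.9% and 16.4% of all genes. Above it were SLC2A1, PGK1, PGAM1, LDHA, SLC16A3, PDK1, PDK3, PFKFB3, PFKFB4 and BNIP3, from 1.04 ± 0.31 for PDK1 to 3.40 ± 0.46 for SLC16A3 (adjusted p = 0.00125), and the value of PDK3 includes the luteolin-labelled array that was not well above background. HIF1A (-1.13 ± 0.24, adjusted p = 0.00782) and BHLHE40 (-2.96 ± 0.34, adjusted p = 0.000711) lay below. Of the 5 PDK and PFKFB regulators, 4 were above the sum, and of the 15 enzymes, 2. This result rests on which arrays had which drug: with the treatments in the file names, 9 members were above and 9 below the sum, beside 19.5% and 24.8% of all genes, and 3 members (PGAM1, PDK1 and PDK3) were called the same way under either naming.

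**Figure D5:**
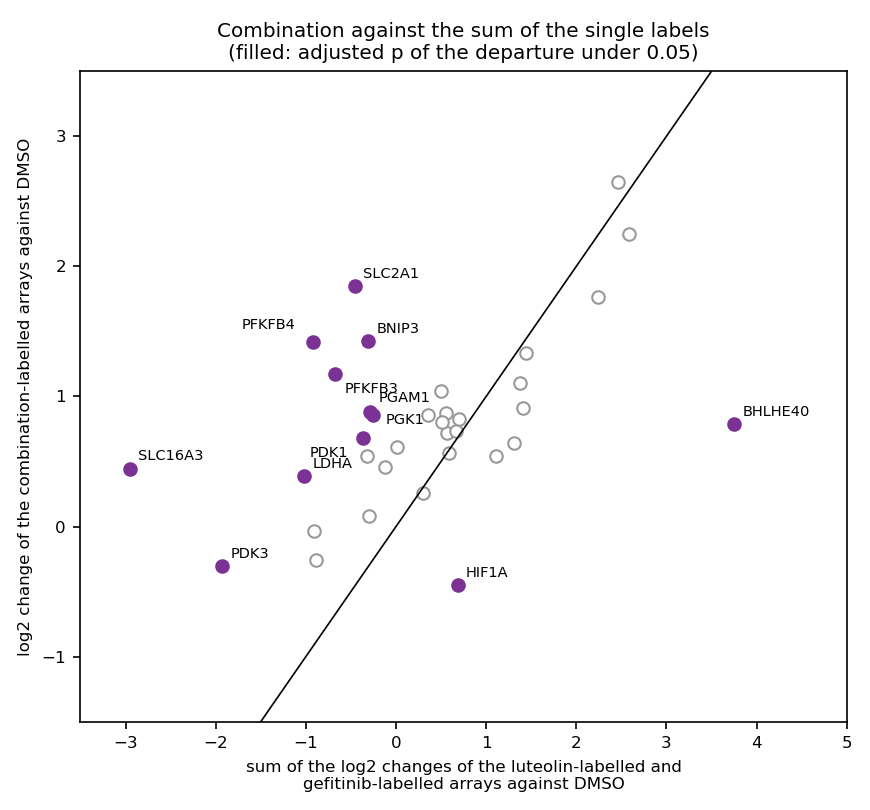
Log2 change of the combination-labelled arrays against DMSO (vertical) and the sum of the changes of the luteolin-labelled and gefitinib-labelled arrays (horizontal) for the 35 genes, with the line where they are equal. The 12 filled, named genes departed from the line at an adjusted p under 0.05, 10 of them above it and 2, HIF1A and BHLHE40, below.

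The arrays lay on 3 slides, which were also scanned at 3 times. Within the slide that held an array of DMSO and of each drug-labelled group, the difference from DMSO had the same sign as in the full fit for 35 of 35 members in the luteolin-labelled, 32 in the gefitinib-labelled and 33 in the combination-labelled array. On the slide that held a further DMSO, luteolin-labelled and combination-labelled array, it did for 33 and 35 of 35. The full fit averages these same arrays, so agreement in sign was partly built in and is not an independent check. The second gefitinib-labelled array shared a slide with a 0 h array and with no DMSO array. Over the 35 members, the SD of the arrays within a group had a median between 0.09 and 0.23 on the log2 scale, highest in the gefitinib-labelled.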

How the data were processed

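The authors deposited scanner files of Agilent Feature Extraction (version 10.7.3.1 per the file headers) with the processed signal of each spot, a linear intensity after subtraction of background and spatial trend, not normalized between arrays. The deposited value table repeats that intensity. No per-sample column went unmapped (0). Groups came from the sample labels.

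Control and outlier spots were left out (R 4.3.3; limma 3.58.1). Spots of a probe were averaged as log2 values, and the 75th percentile of each array was subtracted. Of 41000 probes, 28776 were kept for being well above background on the 2 arrays of any group. A probe counted as such where at least 50% of its spots did. One model with 5 groups was fitted to all 10 arrays, and p-values were adjusted by Benjamini-Hochberg over all kept probes. The 38 members have 63 probes, 57 of them kept. Probe positions in the files are on hg18 and are not printed. Promoters are from RefSeq on GRCh38.p14.

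The members and the lists were chosen with earlier results of these data known. Genes named beyond the members are those of the lists called alike in all 3 drug-labelled groups, and the largest called rise and fall of each list in each group. Precision is limited by the 2 arrays a group. Alternatives were other background corrections, scalings, filters, probes and fits, the file names' treatments, the methods' t-test, and leaving out each array. Values of some listed genes outside the 38 are not reported here.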

Additional observations from a re-analysis of the deposited data

Results flagged for a closer look

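For 12 members the change in the combination-labelled arrays differed from the sum of the changes in the luteolin-labelled and gefitinib-labelled arrays, by the interaction term of limma. The log2 departure was 3.40 for SLC16A3, 2.34 for PFKFB4, 2.30 for SLC2A1, 1.86 for PFKFB3, 1.74 for BNIP3, 1.62 for PDK3, 1.41 for LDHA, 1.16 for PGAM1, 1.11 for PGK1 and 1.04 for PDK1. It was -1.13 for HIF1A and -2.96 for BHLHE40. The adjusted p ranged from 0.000711 for BHLHE40 to 0.0331 for PDK1. With the treatments in the file names, the departure of SLC16A3 was -3.10, of PFKFB4 -2.09, of SLC2A1 -2.07 and of BHLHE40 1.61, each past the adjusted p in the opposite direction.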

How the results depend on the processing

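With 2 arrays a group, 3356 single-member values were recomputed under the alternatives. Of these, 3200 kept their side of the threshold, and uncalled values among them could change sign. Another 97 lost and 36 gained a call. The remaining 23 changed direction and were called before or after, all with the treatments of the file names. Under these, the luteolin values of SLC2A1, PGAM1, ENO1, PDK1, PFKFB3, PFKFB4, ADM and BNIP3 against DMSO were 1.85, 0.88, 0.54, 0.68, 1.17, 1.42, 2.65 and 1.43. The gefitinib values of PFKL, GAPDH, PGAM1, ENO1, PKM2, PDK1, PDK3, PDK4, ADM and ANKRD37 were -0.015, -0.36, -1.13, -1.05, -0.57, -1.29, -1.94, 2.45, -0.37 and 1.31. The combination values of SLC2A1, SLC16A3, PDK4, PFKFB4 and ANKRD37 were -0.34, -2.80, -0.21, -0.80 and -0.81. The counts against DMSO then were 10 higher and 0 lower for luteolin, 4 and 4 for gefitinib and 7 and 1 for the combination. Of all genes, 12.0% and 7.72%, 7.23% and 6.14%, and 15.7% and 14.3% were called in these comparisons. The members called were 16 for luteolin against 0 h, 8 for the combination against luteolin and 21 against gefitinib. Only names change here, not arrays.

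With no minimum fold, luteolin-labelled arrays had 11 members lower, gefitinib-labelled 20 higher and 3 lower, combination-labelled 24 higher, and 18, 24 and 25 members were called against 0 h. Of all genes, 11.7%, 33.0% and 22.2%, and 25.0% were called so against DMSO, and 30.4%, 54.4% and 40.7% against 0 h. Quantile normalization gave 3 higher in the gefitinib-labelled arrays, beside 10.4% of all genes. It gave 6 called there against 0 h, 13 for luteolin-labelled against gefitinib-labelled and 10 for combination-labelled against luteolin-labelled. The 75th percentile over probes well above background on all arrays gave 3 higher in the gefitinib-labelled, beside 10.3% of all genes. The methods' t-test, unadjusted and with the same minimum fold, gave 0 higher and 2 lower, 2 higher, and 6 higher in the 3 groups in order. Of all genes, this t-test called 3.57% higher and 2.16% lower, 5.58% higher, and 3.06% higher there. Against 0 h the t-test gave fewer members than limma in each group, and the shares of all genes there are not given. After Benjamini-Hochberg it gave 0 in every case. The causes were not tested.

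Leaving out 1 array gave 1 to 4 members higher in the luteolin-labelled arrays (1 without DMSO replicate 1, 2 without DMSO replicate 2, 1 without luteolin replicate 2), and 3 to 6 lower. It gave 3 to 12 higher in the gefitinib-labelled (3 without DMSO replicate 2, 3 without gefitinib replicate 1, 12 without gefitinib replicate 2) and 1 to 3 lower (3 without gefitinib replicate 1). The combination-labelled arrays had 7 to 12 higher, and the luteolin-labelled total against 0 h was 5 to 10. The lone array left was assumed to vary like the other groups. The replicate numbers partly follow the slides, and the labels give them no further meaning. Same-numbered deviations correlated at -0.10 to 0.29 between groups, over 0.1 in 6 of 10 pairs of groups. The replicate block gave 4 and 4, 7 and 1, and 10 and 0 members against DMSO. For the departure from additivity it gave more members than the main fit, and the share of all genes there is not given. Of all genes it called 7.29% and 6.33%, 15.8% and 14.3%, and 12.2% and 7.85% against DMSO.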

Other observations

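Genes of the same pathways outside the 38 were taken from 3 further lists. Of 39 other hypoxia-response genes tested, 6 were higher and 2 lower in the luteolin-labelled arrays against DMSO, 7 and 8 in the gefitinib-labelled and 15 and 1 in the combination-labelled. Of all genes, 7.23% and 6.14%, 15.7% and 14.3%, and 12.0% and 7.72% were called in these comparisons. DDIT4, an inhibitor of mTOR signaling induced by hypoxia and other stresses, was at 2.23, 1.44 and 2.06 on the log2 scale in that order, and the transcription factor gene KLF7 at 2.74, 2.19 and 1.97, each called. In the combination-labelled arrays ANGPTL4, a secreted inhibitor of lipoprotein lipase, had the largest called rise (2.66 ± 0.38, adjusted p = 0.00222). In the luteolin-labelled arrays LOX, lysyl oxidase, was at least 5.61-fold higher than in DMSO, whose arrays did not detect it above background, and PPFIA4 at least 2.22-fold lower. For these bounds a dim array took the larger of its own value and its faintest detected probe. In the gefitinib-labelled arrays the histone demethylase gene KDM3A, a HIF target, fell by 1.64 (adjusted p = 0.00045).

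Of 27 other glycolysis and pyruvate genes tested, 3 were higher and 1 lower in the luteolin-labelled arrays, 2 and 4 in the gefitinib-labelled and 3 and 2 in the combination-labelled, to be read against the same shares of all genes. PCK2, mitochondrial phosphoenolpyruvate carboxykinase, rose (2.21 ± 0.17, adjusted p = 0.000398) and FBP1, which reverses the phosphofructokinase step, fell (-1.25 ± 0.30, adjusted p = 0.0188) in the luteolin-labelled arrays. LDHC, the testis form of lactate dehydrogenase, rose (2.72 ± 0.55, adjusted p = 0.00478) and TXNIP, an inhibitor of glucose uptake, fell (-1.68 ± 0.39, adjusted p = 0.00778) in the gefitinib-labelled arrays. In the combination-labelled arrays ARRDC4, a relative of TXNIP, rose (1.96 ± 0.30, adjusted p = 0.00286), and the monocarboxylate transporter SLC16A7 fell (-1.51 ± 0.21, adjusted p = 0.00197), with 1 of the 2 arrays not well above background.

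Of 12 other oxygen-sensing genes tested, 1 was higher and 0 lower in the luteolin-labelled arrays, 1 and 2 in the gefitinib-labelled and 0 and 0 in the combination-labelled. The one in the luteolin-labelled arrays was CITED2, which competes with HIF for its coactivator (1.45 ± 0.30, adjusted p = 0.0107). In the gefitinib-labelled arrays HIF3A rose by 1.20 ± 0.26 (adjusted p = 0.00569) and the coactivator EP300 fell (-1.34 ± 0.44, adjusted p = 0.032). The levels of EP300 were -1.34 and -1.15 with DMSO and -1.77 and -3.40 in the gefitinib-labelled arrays. Most of its fall thus lay in the second of these, which shared no slide with a DMSO array. Between DMSO and 0 h, limma called 0 genes of these 3 lists.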
